A study of Mus musculus with 18 samples.

Results

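This account concerns the introns of protein-coding genes as a source of RNA that survived RNase A/T1 digestion without any added protein. A peak of an RNase-only library was a member when it lay, on its own strand, within the body of a protein_coding gene of GENCODE M21 and touched no annotated exon of that strand. By this rule 7989 of the 30045 peaks in the 6 RNase-only libraries were intronic, 26.6% of them (95% Clopper-Pearson interval 26.1 to 27.1). That interval treats peaks as independent and does not measure the spread between libraries, whose shares ran from 12.5% to 37.6%. Peaks that touched an exon on their strand, 12123 in number, are called exonic below. The remaining 9933 peaks were neither intronic nor exonic by these rules and are called other.

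The RNA came from livers of mice aged 8 to 9 days, and all animals were Mavs-/-, so that the whole comparison lacks the adaptor through which MDA5 signals. Editing-deficient mice were Adar-/-; Mavs-/- and the controls were Mavs-/- alone, which the sample titles call wild-type. Each genotype gave 3 replicates of 3 fractions, 18 libraries in all: RNA digested after incubation with recombinant mouse MDA5 without its CARDs (MDA5-protected), RNA digested without that protein (RNase-only) and undigested total RNA (input). The labels name no Cre driver or transgene. MDA5 was added to purified RNA, so an MDA5-protected peak marks protection in the test tube, and the clean-up after digestion removes small products.

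RNase A and RNase T1 cut single-stranded RNA and spare base-paired stretches. Introns are removed from pre-mRNA and usually degraded in the nucleus, and they contain many repeats that can pair with a neighbouring copy in the opposite orientation to form long RNA duplexes. ADAR1 edits adenosine to inosine in such duplexes, and MDA5 is the cytosolic sensor that assembles along double-stranded RNA.

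For 4 regions the bases can be shown, because each had a peak in at least 3 RNase-only libraries and lay wholly within 1 of the windows around gene starts for which a sequence was at hand. They were picked for that reason and not for their strength, and each lies upstream of a RefSeq start of its own host, at 41, 1, 28 and 202 bases in the order below. The sequences are RefSeq's for GRCm38.p6, written 5′ to 3′ on the strand of the peak, and capitals mark bases that RNAfold pairs in its minimum free energy structure.
Prkar1a, chr11:109651162-109651301, + strand: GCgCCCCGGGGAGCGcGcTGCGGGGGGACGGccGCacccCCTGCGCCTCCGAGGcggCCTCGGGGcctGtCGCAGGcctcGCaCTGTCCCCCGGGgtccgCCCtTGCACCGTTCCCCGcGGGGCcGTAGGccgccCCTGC
Scn8a, chr15:100870541-100870644, + strand: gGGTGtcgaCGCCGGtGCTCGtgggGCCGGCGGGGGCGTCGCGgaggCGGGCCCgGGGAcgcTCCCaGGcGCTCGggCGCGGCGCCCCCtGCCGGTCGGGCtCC
Rnf214, chr9:45906210-45906345, - strand: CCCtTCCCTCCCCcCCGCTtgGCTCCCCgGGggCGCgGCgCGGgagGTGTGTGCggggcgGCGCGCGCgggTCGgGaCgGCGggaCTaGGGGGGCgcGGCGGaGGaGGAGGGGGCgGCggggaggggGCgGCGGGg
Capn1, chr19:6015449-6015482, - strand: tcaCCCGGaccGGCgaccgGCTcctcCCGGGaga

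The region in Prkar1a, which encodes a regulatory subunit of protein kinase A, had peaks in 4 RNase-only and 6 MDA5-protected libraries and is 82.9% G and C. RNAfold paired 106 of its 140 bases at -81.1 kcal/mol. The Scn8a region, in a gene for a neuronal sodium channel, was covered in 5 RNase-only and 6 MDA5-protected libraries, in 2 of the former by peaks that reached an exon, and 80 of its 104 bases were paired at -71.6 kcal/mol, with 12 bp in the longest unbroken helix. Both regions thus recurred with and without MDA5. The 136 bases in Rnf214 (92 paired, -79.5 kcal/mol) and the 34 bases in Capn1, a gene for a calcium-dependent protease (16 paired, -12.2 kcal/mol), were found in 3 RNase-only libraries each and in 0 MDA5-protected libraries. The first 3 sequences are 82.9% to 86.0% G and C and that of Capn1 is 76.5%; a predicted structure describes the isolated stretch and not its state in the preparation.

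The liver was recognisable in the input. All 8 hepatocyte markers had an exonic input peak in every one of the 6 input libraries, as had 7 of 8 erythroid, 5 of 6 Kupffer cell, 4 of 5 endothelial and 4 of 5 stellate cell markers in at least 1 library, and 0 of 4 cholangiocyte markers. Adar held 2 intronic regions, both in editing-deficient replicate 2, and Mavs held 0, so neither gene checks the labels. In bulk RNA, fewer cells of a type and less RNA per cell cannot be told apart. Read counts are not part of the lists and the depth of a peak is therefore unknown.

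One RNase-only library stood apart. In editing-deficient replicate 1, 419 of 722 intronic peaks (58.0%) lay opposite another peak of the same library on the other strand. That share was 12.1% and 7.93% in editing-deficient replicates 2 and 3, and 9.85%, 4.74% and 14.2% in Mavs-/- replicates 1 to 3. Its intronic peaks were also the shortest (median 152 nt) and overlapped the fewest MDA5-protected peaks (15.1%), whereas the MDA5-protected library of the same number had an intronic share of 53.9%, close to the 54.8% and 53.2% of replicates 2 and 3. Of its exonic peaks 1.49% lay opposite another peak, the lowest share of the 6 libraries. Of its other peaks 39.4% did, the highest such share of the 6 libraries. The classes rest on the deposited strand of each peak, and whether the strand assignment or the material of this library differed from the others was not tested. That bears on its 722 intronic peaks, its intronic share of 12.5% and its part in the regions of 1 genotype.

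Intronic peaks were numerous in every RNase-only library. Editing-deficient replicates 1, 2 and 3 held 722, 1926 and 2105, which is 12.5%, 31.6% and 37.6% of their peaks. Mavs-/- replicates 1, 2 and 3 held 1563, 970 and 703, or 28.1%, 25.4% and 22.3%. The 2 genotypes overlapped, and in share the editing-deficient libraries enclosed the Mavs-/- ones on both sides.

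The mean number was 1584 ± 752 (SD, n = 3) in editing-deficient and 1079 ± 440 (SD, n = 3) in Mavs-/- libraries, a difference of 506 (two-sided exact permutation test, p = 0.30, adjusted p = 0.90 over 6 comparisons). The difference was 937 without editing-deficient replicate 1, 335 without editing-deficient replicate 2, 245 without editing-deficient replicate 3 and 318 without Mavs-/- replicate 3, and 94.3 once each library was cut to the same number of peaks. The intronic share was 27.2% ± 13.1 against 25.2% ± 2.87 (SD, n = 3 each; exact permutation p = 0.90, adjusted p = 1.0). With 3 libraries against 3 this test cannot give a p under 0.10, and these p-values measure the spread between the libraries. Without editing-deficient replicate 1 the mean share of that genotype was 34.6%, above all 3 Mavs-/- libraries, with an exact permutation p of 0.10, the smallest that 2 against 3 allow. Host genes per library numbered 605, 914 and 916 in editing-deficient and 720, 415 and 467 in Mavs-/- libraries, and this difference of 278 did not pass the test either (exact permutation p = 0.20, adjusted p = 0.90). It was 381 without editing-deficient replicate 1 and 84.3 at that same number of peaks.

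**Figure D1:**
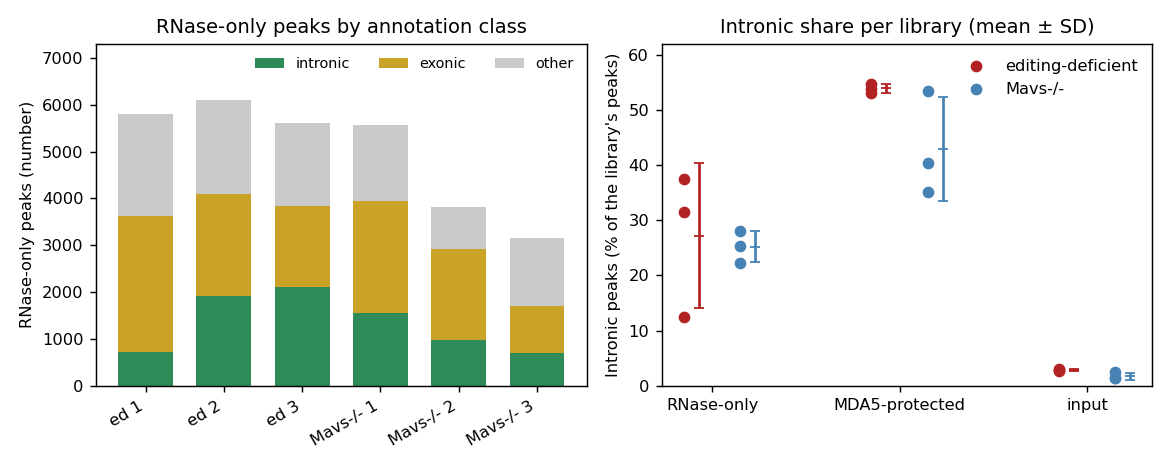
The left panel plots the number of RNase-only peaks per library (ed, editing-deficient; numbers are replicates) stacked as intronic, exonic and other. The right panel plots the intronic percent of peaks of each library by fraction, with mean and SD of 3 libraries beside the points; MDA5-protected libraries lie at 35.1% to 54.8%, RNase-only libraries at 12.5% to 37.6% and input libraries at 1.34% to 2.99%.

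Intronic peaks were a larger part of what MDA5 protected than of what resisted RNase alone. The intronic share of MDA5-protected peaks was 53.9%, 54.8% and 53.2% in editing-deficient and 53.5%, 40.4% and 35.1% in Mavs-/- libraries. In all 6 library numbers it exceeded that of the RNase-only library, by 22.2 percentage points on average (two-sided exact sign-flip permutation test over 6 pairs, p = 0.0312, adjusted p = 0.0438 over 7 comparisons). The smallest p that 6 pairs allow is 0.0312, and 5 pairs allow 0.0625, so that no such call can survive the loss of any library; without editing-deficient replicate 1 the difference was 18.4 points. Undigested input had few intronic peaks, 58 to 265 per library.

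The peaks themselves were short. Their median length was 152, 180 and 218 nt in the editing-deficient and 189, 227.5 and 175 nt in the Mavs-/- libraries, and single peaks ran from 21 to 1743 nt. Between genotypes the mean of the medians differed by -13.8 nt (183 ± 33.1 against 197 ± 27.2, SD, n = 3 each; exact permutation p = 0.60, adjusted p = 1.0). The direction turned, to 1.83 nt without editing-deficient replicate 1, 1.33 nt without Mavs-/- replicate 2 and 3.33 nt once each library was cut to the same number of peaks. Exonic peaks of the same libraries were longer, with medians of 213, 200, 233, 207, 237 and 210 nt. Other peaks were shorter than intronic ones in every library, with medians of 125, 121, 137, 122, 126 and 127 nt. The intronic median lay below the exonic one in all 6 libraries, by a mean difference of -26.4 nt (exact sign-flip permutation p = 0.0312, adjusted p = 0.0438), but when exons of either strand were counted the difference was -20.2 nt (p = 0.0625, exact) and the call was lost, as it was in an unpaired exact permutation test (p = 0.0736). Intronic peaks of the MDA5-protected libraries were longer than the intronic RNase-only peaks in all 6 numbers, with a mean difference of 54.6 nt (exact sign-flip permutation p = 0.0312, adjusted p = 0.0438).

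Peaks were called at an area of at least 500, so that the median area mostly shows this floor. The area under the significance curve (AUC), the score by which peaks were called and which grows with depth, had a median of 686 to 749 for the intronic peaks of a library and reached 16443 for the strongest. The median −log10 adjusted P of intronic peaks was 8.25 to 9.98.

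Many intronic peaks recurred. A peak in another replicate of the genotype covered part of 55.7%, 77.6% and 64.3% of the intronic peaks of editing-deficient replicates 1 to 3. In Mavs-/- replicates 1 to 3 the shares were 56.2%, 79.8% and 71.8%. The genotype means were 65.8% ± 11.0 and 69.3% ± 12.0 (SD, n = 3 each; exact permutation p = 0.70, adjusted p = 1.0). Their difference of -3.45 points was -43.9 and -33.6 without editing-deficient replicates 2 and 3, and it turned to 18.2, 17.1 and 4.06 without Mavs-/- replicates 1, 2 and 3; leaving out a replicate leaves the others of its genotype only 1 library in which to recur. Exonic peaks recurred at 47.6%, 68.4%, 74.4%, 54.3%, 63.9% and 63.6%, so that intronic peaks were higher in 5 of 6 libraries by 5.53 points on average, a difference that did not pass the test (exact sign-flip permutation p = 0.219, adjusted p = 0.219) and turned to -2.87 points without editing-deficient replicate 2 and to -4.17 points at an area of at least 1000. Recurrence reached across genotype: 70.1% of the intronic peaks of Mavs-/- replicate 1 met a peak of editing-deficient replicate 3, but 15.7% met one of editing-deficient replicate 1. Recurrent intronic peaks were longer than the rest in every library, for example with medians of 221 against 215 nt in editing-deficient replicate 3 and of 206 against 64 nt in Mavs-/- replicate 3.

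Joined across the 6 libraries by strand, the peaks formed 3444 regions covering 843972 bases, with a median length of 198 nt (quartiles 131.75 and 301). A library counted for a region when any of its RNase-only peaks overlapped it on that strand. Of the regions, 1571 (45.6%) were seen in 1 library, 683 in 2, 481 in 3, 352 in 4, 276 in 5 and 81 (2.35%) in all 6. The regions of 1 library came most often from editing-deficient replicate 3, with 522, followed by 310, 284, 223, 164 and 68 in the others. Exonic regions, 5298 in number, had a larger share in 1 library (55.0%) and also in all 6 (5.64%).

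The libraries that lacked a region were unequal. Without editing-deficient replicate 1, the number of regions present in all the remaining libraries rose from 81 to 293, and without Mavs-/- replicate 2 it was 122. In 212 regions the peak was missing from editing-deficient replicate 1 alone.

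**Figure D2:**
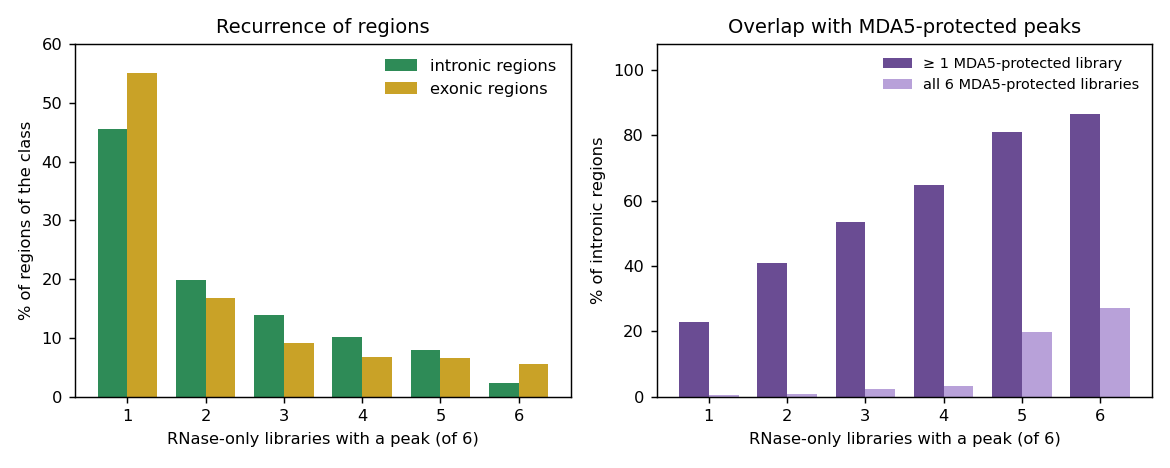
The left panel plots the percent of intronic and of exonic regions by the number of RNase-only libraries, of 6, that hold a peak. The right panel plots, for intronic regions, the percent overlapped by an MDA5-protected peak in at least 1 or in all 6 MDA5-protected libraries; the first rises from 22.8% of regions of 1 library to 86.4% of regions of all 6.

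MDA5-protected peaks covered intronic RNase-only peaks far more often than exonic ones. Within the same library number, an MDA5-protected peak overlapped 15.1%, 40.5% and 38.8% of the intronic peaks in editing-deficient replicates 1 to 3. The shares were 36.5%, 31.0% and 27.7% in Mavs-/- replicates 1 to 3. For exonic peaks they were 4.91%, 8.96%, 13.5%, 5.46%, 6.74% and 14.0%. All 6 libraries showed the higher share in introns, with a mean difference of 22.7 points (exact sign-flip permutation p = 0.0312, adjusted p = 0.0438) and of 25.2 points without editing-deficient replicate 1. The genotypes did not separate, at 31.5% ± 14.2 in editing-deficient and 31.7% ± 4.41 in Mavs-/- libraries (SD, n = 3 each; exact permutation p = 1.0). Without editing-deficient replicate 1 the first mean was 39.6%, with an exact permutation p of 0.20. Once the lists of each fraction were cut to equal numbers of peaks, editing-deficient minus Mavs-/- was -6.72 points (exact permutation p = 0.50). The full MDA5-protected lists held 1636, 2768 and 2868 peaks in editing-deficient and 1829, 1220 and 1180 in Mavs-/- libraries. A list with more peaks offers more places for an overlap.

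Seen from the other list, 758 of the 1516 intronic MDA5-protected peaks of editing-deficient replicate 2 overlapped an RNase-only peak of the same number, as did 52.5% of those of replicate 3 and 54.4%, 59.2% and 47.6% of those of Mavs-/- replicates 1 to 3. In editing-deficient replicate 1 the share was 12.4%. Intronic peaks with an MDA5-protected partner were longer, for example 232 against 172 nt (medians) in Mavs-/- replicate 1. A longer peak has more bases on which an overlap can fall, and the part of this was not tested.

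By region, 1416 of 3444 (41.1%) met an MDA5-protected peak in at least 1 library. The share rose step by step with recurrence, from 22.8% for regions of 1 RNase-only library through 40.8%, 53.4%, 64.8% and 81.2% to 86.4% for regions of all 6. Median region length over the same classes was 157, 211, 230, 273.5, 344.5 and 282 nt. A longer region has more bases on which an overlap can fall, and the part of length in this rise was not tested. A peak in all 6 MDA5-protected libraries was found over 116 regions, and 22 regions had a peak in all 12 digested libraries. Conversely, 187 regions seen in 4 or more RNase-only libraries met no MDA5-protected peak. Input peaks touched 48 regions (1.39%).

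Peaks of the undigested RNA thus rarely marked these places. An input peak of the same number overlapped 0.143% to 0.619% of the intronic peaks and 1.80% to 4.22% of the exonic peaks, a mean difference of -2.15 points that was negative in all 6 libraries (exact sign-flip permutation p = 0.0312, adjusted p = 0.0438). The digested libraries had been called against input as control, which is part of how these peaks were defined. Only 1.34% to 2.99% of the peaks of an input library were intronic. Intronic peaks thus had few input peaks to meet, which the test does not take into account.

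Overlap between strands differed by library. Intronic peaks lay opposite another peak more often than exonic ones in 5 of 6 libraries, but Mavs-/- replicate 3 went the other way, with 14.2% of intronic and 17.7% of exonic peaks. The mean difference of 13.0 points did not pass the test (exact sign-flip permutation p = 0.0938, adjusted p = 0.109), and it was 4.32 points without editing-deficient replicate 1 (exact p = 0.188). In every library, intronic peaks opposite another peak had an MDA5-protected partner less often than the others, as 17.9% against 43.6% in editing-deficient replicate 2 and 28.3% against 31.2% in Mavs-/- replicate 2. For editing-deficient replicate 1 these shares were 12.6% and 18.5%, so its intronic peaks without an opposite partner also met MDA5-protected peaks less often than those of the other libraries, by value.

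**Figure D3:**
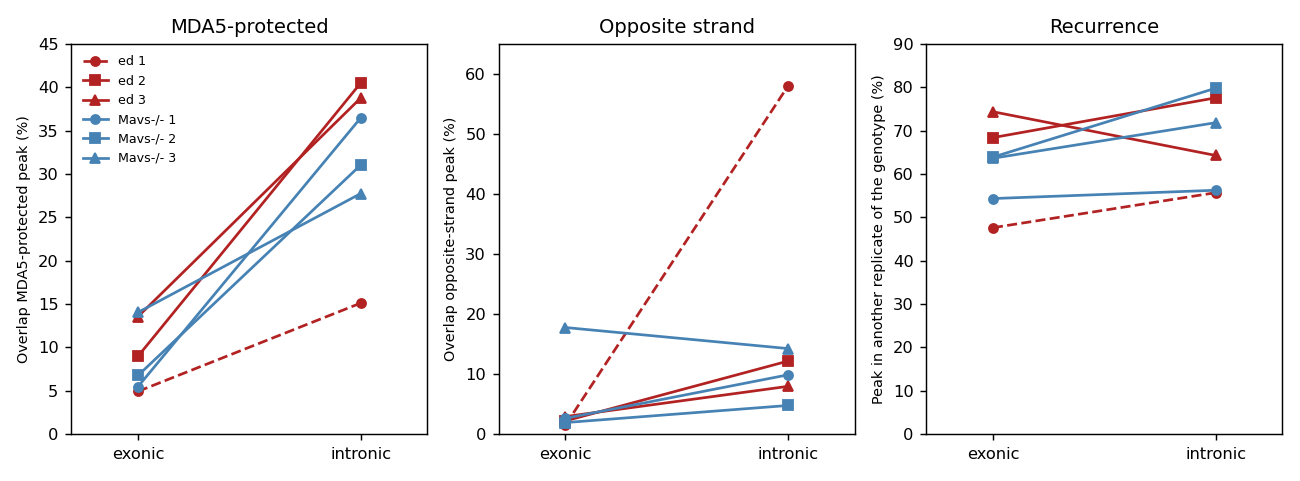
Each line joins the exonic and the intronic peaks of 1 RNase-only library (ed, editing-deficient; the dashed line is editing-deficient replicate 1), as percent overlapping an MDA5-protected peak, percent overlapping a peak of the same library on the opposite strand, and percent with a peak in another replicate. All 6 lines rise for MDA5-protected overlap, from 4.91% to 14.0% in exons to 15.1% to 40.5% in introns.

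The 3444 regions belonged to 1601 host genes, 7.79% of the 20541 protein-coding genes with an intron. Most hosts were minor, 1073 of them (67.0%) having 1 region, while 44 hosts had 10 or more and the leading 230 hosts held over 50% of all regions. Hosts were long genes, with a median length of 98919 bases against 19631 for all intron-containing genes. Across hosts the number of regions followed total intron length weakly (Spearman's rho 0.28 over 1601 genes, which are not independent replicates).

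Hosts also had exonic peaks in the undigested RNA more often than other genes, by value. Such a peak was found in at least 1 input library for 34.3% of hosts and for 20.3% of all intron-containing genes. Per megabase of intron there were 2.72 regions in genes without an input peak, 6.65 in genes with one in 1 to 5 input libraries and 10.6 in genes with one in all 6. Even so, 2186 regions lay in genes with no exonic input peak.

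The 10 hosts with the most regions held 313 regions (9.09%) and 13.2% of all intronic peaks. Sntg1, which encodes a syntrophin, a membrane scaffold protein, came first with 63 regions. Its peaks numbered 4, 30 and 34 in editing-deficient replicates 1 to 3 and 45, 33 and 11 in Mavs-/- replicates 1 to 3. Apart from editing-deficient replicate 1, Mavs-/- replicate 3 was lowest and the genotypes overlapped. The gene spans 938404 bases and had no exonic input peak. Of its 63 regions 24 lay in 1 intron, the third, of 203929 bases.

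Dpyd, which encodes dihydropyrimidine dehydrogenase, the first enzyme of pyrimidine breakdown, had 58 regions and the most peaks of any host, 224. They were distributed as 3, 56 and 58 in editing-deficient and 43, 46 and 18 in Mavs-/- libraries. An MDA5-protected peak met 48 of its regions, and 30 regions recurred in 4 or more RNase-only libraries. A cluster of 22 regions lay in intron 12, which is 54834 bases long, and 14 of these recurred in 4 or more libraries. Introns are numbered here from the 5′ end of the gene as gaps between its merged exons.

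Slc22a27, of a family of organic anion transporters, packed 30 regions into 101640 bases, or 29.5 per 100 kb, against 6.71 in Sntg1 and 6.66 in Dpyd. Its first intron held 23 of them. Its peaks numbered 4, 24 and 17 in editing-deficient and 28, 25 and 17 in Mavs-/- libraries, and 4 of its regions were present in all 6 RNase-only libraries, as many as in F8.

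Ube2e2, for a ubiquitin-conjugating enzyme, had 29 regions with 3, 25, 19, 28, 20 and 12 peaks in the libraries in the same order, and it was the only 1 of the 10 hosts with an exonic peak in all 6 input libraries. Agmo, an enzyme that cleaves ether lipids, had 25 regions, 21 of them in its intron 16. Pcca, a subunit of propionyl-CoA carboxylase, and Stau2, itself a protein that binds double-stranded RNA, had 23 each. Thrb, the beta receptor for thyroid hormone, and Zeb1, a transcriptional repressor, had 21 each, and F8, coagulation factor VIII, had 20. Rtl4 also had 20, and F8 was named among the 10 because its regions cover more bases, 8452 against 5566. In these 10 hosts editing-deficient replicate 1 held 0 to 4 peaks, against 12 to 58 in editing-deficient replicates 2 and 3 and Mavs-/- replicates 1 and 2, and 2 to 18 in Mavs-/- replicate 3.

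Beyond these, regions were dense in some smaller liver genes. Kng2, a kininogen, had 19 regions in 43629 bases (43.5 per 100 kb), and Cyp2b9, a cytochrome P450, had 16 in 37251 bases (43.0 per 100 kb). Both had exonic input peaks in all 6 libraries. The peaks of Kng2 were 0, 13 and 21 in editing-deficient and 5, 5 and 0 in Mavs-/- libraries, whereas Rtl4, a retrotransposon-derived gene on the X chromosome, had 2, 5 and 2 against 19, 9 and 3. The Mavs-/- values of Kng2 lie below the ranges of the 10 leading hosts. So do those of Rtl4 in editing-deficient replicates 2 and 3 and in Mavs-/- replicate 2. The other values of both genes lie within these ranges. Kng2, Cyp2b9 and Rtl4 were chosen after their values were seen.

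**Figure D4:**
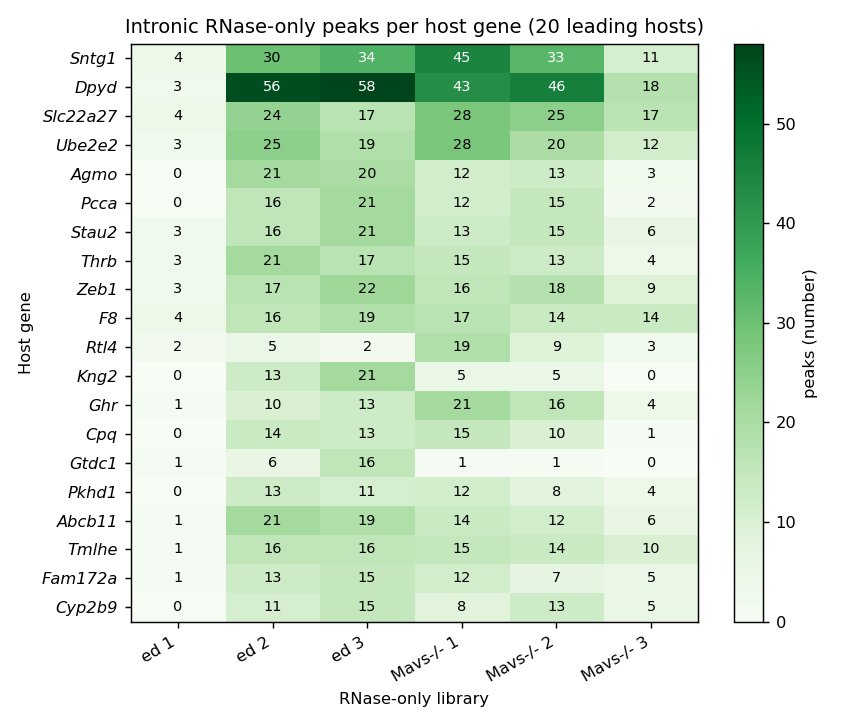
Number of intronic RNase-only peaks in each library (columns; ed, editing-deficient) for the 20 hosts with the most regions (rows), with darker green for more peaks. The column of editing-deficient replicate 1 holds 0 to 4 peaks throughout, and the highest value is 58, in Dpyd.

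Regions of 1 host often lay close together. For 1376 regions (40.0%) another region of the same host was within 2000 bases, and among the 2371 regions with a fellow in their host the median gap to the nearest was 948 bases. Among regions of 1 library 30.5% had another within 2000 bases, and among regions of 5 libraries 59.4%. The share was lower, 48.1%, among regions of all 6 libraries, near the 48.2% of regions of 3.

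**Figure D5:**
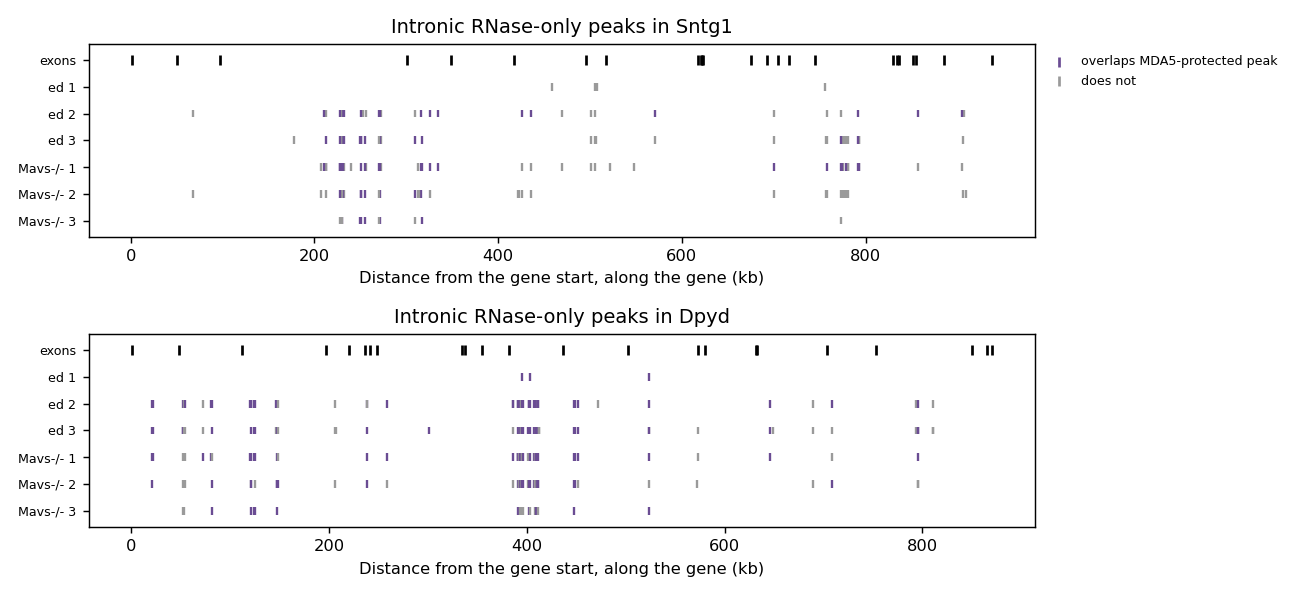
Positions of intronic RNase-only peaks along Sntg1 and Dpyd, as distance from the gene start in kb, in each library (ed, editing-deficient); purple ticks overlap an MDA5-protected peak of the same library number, grey ticks do not, and black ticks are exons. In Dpyd a dense cluster in intron 12, which is 54834 bases long, recurs across libraries, with few ticks in editing-deficient replicate 1.

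The regions were spread along their introns. The median region lay 5382.5 bases from the nearest exon of its host, and its middle at 0.47 of the way through the intron (quartiles 0.26 and 0.70). Of the regions, 15.4% were within 1000 bases of a host exon, where 14.4% of the intronic bases of the hosts and 25.3% of those of all intron-containing genes lie. First introns held 17.3% of regions, 14.8% of the hosts' intronic bases and 19% of those of all intron-containing genes, so that on both measures the regions lay above the first background and below the second. The regions' introns had a median length of 23272 bases, against a median of 49229 bases over the hosts' introns and 21469 bases over all such introns when each intron is weighted by its length. RefSeq small RNA genes (snoRNA, miRNA, snRNA, tRNA) were touched by 0 regions, RefSeq pseudogenes by 35 and exons of the opposite strand by 28.

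Of the regions with a peak in all 6 libraries, the 10 with the best mean rank of area lay in 9 hosts. The first was a region in the opening intron of Kat6a, a histone acetyltransferase, at chr8:22859713-22859902. Its AUC was 16443, 7327 and 5174 in editing-deficient and 3569, 4004 and 4608 in Mavs-/- libraries. Every editing-deficient value was above every Mavs-/- one, but the AUC grows with depth and was not tested. By rank of area among the intronic peaks of each library, the places were 1, 2 and 7 against 17, 7 and 2. In rank the genotypes thus overlapped. This region lies 80 bases from an exon, has a peak on the opposite strand in all 6 libraries, and was the 1 region of all 6 with input peaks, in 6 of 6 input libraries. It stands apart from the others in that.

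The next was a 572 nt region of Sipa1l1, which encodes a GTPase-activating protein for Rap, at chr12:82243847-82244418 in intron 3. Its AUC was 2605, 5785 and 3993 in editing-deficient and 6450, 4983 and 3967 in Mavs-/- libraries, and within each library it ranked between place 1 and place 22 among intronic peaks. The region in Htt, the gene for huntingtin, at chr5:34856013-34856870 had 1654, 3873 and 5357 against 3453, 4590 and 3689. In both, editing-deficient replicate 1 was lowest and the genotypes overlapped. MDA5-protected peaks lay over both in 6 of 6 libraries, and no peak lay opposite either.

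In Slc22a27 2 regions of the first intron qualified, of 783 and 859 nt, with AUC from 1797 to 6024 and from 980 to 4765. A Thrb region of 416 nt had 1602 to 3835, an F8 region of 822 nt 836 to 3970 and a Fam172a region of 708 nt 850 to 2985, each lowest in editing-deficient replicate 1. These 5 regions met MDA5-protected peaks in 5 or 6 libraries and had no peak opposite. The Dpyd region of 513 nt and that of Gm11146, a predicted gene, of 313 nt were different, with peaks on both strands in all 6 libraries and the highest AUC, 5482 and 3518, in editing-deficient replicate 1.

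The longest recurrent regions were 2171 nt in Necab1, a calcium-binding protein gene, and 2096 and 1833 nt in Abcb11, the bile salt export pump. That of Necab1 joined peaks of 4 libraries and met an MDA5-protected peak in 1. Those of Abcb11 were seen in 5 RNase-only libraries each, all but editing-deficient replicate 1, and in 5 and 3 MDA5-protected libraries.

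Few regions separated the genotypes. A peak in all 3 editing-deficient and no Mavs-/- library was found for 54 intronic regions (1.57%), where the background over all 13868 RNase-only regions was 1.73%. The reverse held for 13 intronic regions (0.377%), against a background of 0.288%. Both shares were near those of all regions, which include the intronic ones. Among exonic regions the 2 shares were lower, at 0.698% and 0.245%. The counts hang on single libraries: the first was 335 without editing-deficient replicate 1, 139 without editing-deficient replicate 3 and 97 without Mavs-/- replicate 1, and the second 20 and 24 without editing-deficient replicates 2 and 3 and 20 and 61 without Mavs-/- replicates 2 and 3. Leaving out a library loosens the requirement for its own genotype or for the other.

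The 54 editing-deficient regions and the 13 Mavs-/- regions looked unlike each other. The 54 lay in 54 different hosts, had a median length of 172.5 nt and met an MDA5-protected peak in 7 cases, and 41 of them had a peak on the opposite strand in at least 1 library, 37 of these in editing-deficient replicate 1. The 13 lay in 8 hosts, had a median length of 413 nt and met an MDA5-protected peak in 12 cases, and 1 had a peak opposite. For comparison, 41.1% of all intronic regions and 53.4% of those of 3 libraries met an MDA5-protected peak. The 13 were longer than the 54, and a longer region has more bases on which an overlap can fall. The part of length in this difference was not tested. Without editing-deficient replicate 1, a description chosen after seeing the data, the 335 editing-deficient regions lay in 277 hosts, with a median length of 209 nt. Of them 147 (43.9%) met an MDA5-protected peak and 44 (13.1%) had a peak opposite in at least 1 of the 5 libraries left. The Mavs-/- regions then numbered 13, in 8 hosts, and 12 of these regions met an MDA5-protected peak.

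The 5 best-ranked of the 54 were in Acot12, an acyl-CoA thioesterase (AUC 1591, 1764 and 1056 in editing-deficient replicates 1 to 3), Ddb2, a recognition factor for UV damage (1822, 1243 and 871), Tacc1, a centrosomal coiled-coil protein (1645, 1118 and 894), Gm49355 (1825, 1028 and 752), and Phgdh, the first enzyme of serine synthesis (690, 1020 and 916). The first 4 had peaks on the other strand in all 3 editing-deficient libraries. Such a peak was also present in Mavs-/- replicate 1 for Acot12 and Tacc1, and in Mavs-/- replicate 3 for Ddb2. The region of Phgdh, 107 nt at chr3:98339097-98339203, had no peak opposite in any library. MDA5-protected peaks covered it in 4 libraries, 3 of them editing-deficient and 1 Mavs-/-.

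The 5 best-ranked of the 13 fell in just 2 genes. Cyp2j5, a cytochrome P450 that epoxidises arachidonic acid, had 3 regions in its intron 4, and the strongest, 1076 nt at chr4:96652251-96653326, had an AUC of 3246, 2700 and 859 in Mavs-/- replicates 1 to 3. Akr1c6, an aldo-keto reductase that acts on steroids, had 4 of the 13, the strongest 2 with 3722, 1284 and 761 and with 5502, 3187 and 521. In all 5 the AUC was highest in Mavs-/- replicate 1 and lowest in replicate 3. MDA5-protected peaks over these 5 were in Mavs-/- libraries, 1 or 2 each.

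Gene lists of liver function and RNA biology, beside the 7.79% of intron-containing genes that were hosts, gave small counts. The share of hosts was 6.42% among genes without an exonic input peak. It was 13.4% among genes with one in 1 to 5 input libraries and 12.5% among genes with one in all 6. Of 30 genes for secreted plasma proteins 6 were hosts, although all 30 had an exonic input peak. In the lists that follow, 18, 21, 13, 9 and 26 genes had such a peak, in that order. Cp (ceruloplasmin), Itih3 (an inter-alpha-trypsin inhibitor heavy chain) and Ahsg (fetuin-A) had 2, 1 and 1 regions, in 2, 2 and 1 libraries.

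Of 18 genes for the urea cycle and amino acid metabolism 4 were hosts (22.2%), each with 1 region, among them Ass1, the argininosuccinate synthase, in 3 libraries, Hal, which breaks down histidine, in 2, and Gls2, a glutaminase, in 1. Of 24 genes for fatty acid, bile acid and glucose metabolism 7 were hosts (29.2%). Abcb11 had 16 regions, with 1, 21 and 19 peaks in editing-deficient and 14, 12 and 6 in Mavs-/- libraries, and Ppara, the nuclear receptor for fatty acids, had 5 with 2 to 5 peaks in each library. Fbp1, a gluconeogenic enzyme, had 1 region in 5 libraries.

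In the growth hormone and IGF axis 3 of 16 genes were hosts (18.8%). Ghr, the growth hormone receptor, had 19 regions, with 1, 10 and 13 peaks in editing-deficient and 21, 16 and 4 in Mavs-/- libraries, and 15 of them met an MDA5-protected peak. Insr, the insulin receptor, had 3 regions and was a host in all 6 libraries, and Stat5b, which carries the growth hormone signal to the nucleus, had 2 regions in 3 libraries. Of 29 genes for sensing and editing of double-stranded RNA 3 were hosts (10.3%), namely Zfr, a zinc finger protein that binds RNA, with 2 regions in 3 libraries, Adar, and Adarb1, a second editing enzyme, with 1 region in 1 library. Of 34 genes for nuclear RNA processing 2 were hosts (5.88%), the splicing factors Rbm39 with 1 region in 2 libraries and Hnrnpm with 1 in 1. That share is near the 7.79% of all intron-containing genes. It lies below the 13.4% and 12.5% of genes with an exonic input peak, and was not tested.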

How the data were processed

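Peak lists of 18 libraries were used, 1 per library, with groups taken from the deposited labels. Single-end reads of 75 bp were trimmed by the authors (Trim Galore 0.6.6) and placed on GRCm38 by an aligner that does not splice (NextGenMap), and the authors called peaks per library and strand with Genrich 0.6.1 (adjusted P at most 0.01, area at least 500, gaps up to 20 bp; blacklist and rRNA excluded; input of the same genotype as control for digested libraries). The column-based clean-up after digestion removes small products. The deposited score of a peak is its area under the significance curve, and the authors also deposited −log10 P-values, raw and adjusted. Areas grow with depth and were ranked within libraries only.

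Peaks were classed by GENCODE M21, whose GRCm38 coordinates match the files. A peak inside several gene bodies (8 to 24 per library) was assigned to the shortest. Overlap meant at least 1 base on the same strand. Peaks that overlapped or touched were joined to regions. Genotypes were compared by exact permutation tests (two-sided, 3 against 3 libraries) and classes by exact sign-flip tests over 6 library numbers, with Benjamini-Hochberg adjustment over 6 and 7 comparisons. Whether the same number marks the same animal is not stated. The tests and overlaps were tested on simulated data.

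The members and the gene lists were chosen with earlier results of these data known. Named were the 10 hosts with most regions, the 10 best-ranked regions in all 6 libraries, the 3 longest recurrent regions, the 5 best-ranked regions seen in 1 genotype only (each direction), up to 4 hosts per list (a few of these are not reported here), and Adar and Mavs. Repeat content and inverted copies (3 planned results) need a genome sequence and were not analysed here; for the same reason the bases of the best-ranked regions are not shown. Alternatives were other exon rules, classing by the middle base, an area of at least 1000, a length of at least 50 bp, equal numbers of peaks, overlap of at least 50% of the peak, joining up to 200 bp, each replicate left out and the replicate number as a block. Python 3.11.15, numpy 2.4.6, pandas 2.3.3, scipy 1.17.1, matplotlib 3.10.9 and RNAfold 2.7.2 were used.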

Additional observations from a re-analysis of the deposited data

How the results depend on the processing

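No genotype comparison could pass its test, since the smallest p was 0.10 (0.25 with the block), so its side of the threshold says nothing about stability. Without read counts the depth behind a peak sets an unknown limit. Of 214 alternative values over 16 results, 156 kept direction and side of the threshold (counts: within 1.5 times), of which 70 are genotype comparisons that kept only a direction. Of 32 lost calls, 30 were lost by construction, with 5 pairs; for the other changes the cause was not tested. With exons of either strand the intronic minus exonic difference in median length was -20.2 nt and no longer passed. As an unpaired test without the replicate block it was -26.4 nt with an exact permutation p of 0.0736. With an area of at least 1000 the intronic minus exonic recurrence turned to -4.17 points, and the regions of 1 genotype only numbered 14 (editing-deficient) and 0 (Mavs-/-) and those of all 6 libraries 8. With equal numbers of peaks the difference in median length between genotypes turned to 3.33 nt, the editing-deficient regions numbered 15 and those of all 6 libraries 46.

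With each replicate left out in turn, editing-deficient minus Mavs-/- ran from -3.21 to 9.34 points for the intronic share, from -31.2 to 1.83 nt for median length, from -4.81 to 7.89 points for MDA5-protected overlap and from -43.9 to 18.2 points for recurrence. Intronic minus exonic ran from -29.8 to -19.5 nt for length, from -2.87 to 9.59 points for recurrence, from 20.9 to 25.2 points for MDA5-protected overlap and from -2.33 to -1.81 points for input overlap. MDA5-protected minus RNase-only ran from 18.4 to 24.1 points for the intronic share and from 48.7 to 62.1 nt for length. With 5 pairs the exact test cannot go below 0.0625, so each call made at 6 pairs was lost by construction. Region counts ran from 57 to 335 (editing-deficient only), from 13 to 61 (Mavs-/- only) and from 83 to 293 (all libraries left).

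With the replicate number as a block, the difference in intronic peaks per library stayed at 506 (exact sign-flip permutation p = 0.50, smallest possible 0.25), and the block changed no call. Same-numbered libraries of the 2 genotypes did not deviate together (correlations of peak presence over all regions, as deviations from the genotype means, of -0.08, 0.02 and -0.04). These values were not tested and cannot show whether the same number marks a shared preparation. The soft-masked share of bases (2 results) and inverted copies within 2 kb (1 result) were not run.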
